A study of Mus musculus with 4 samples.

Results

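The subunits of Mediator, the TBP-associated factors (TAFs) and the subunits of the RNA polymerases Pol I, II and III were followed in mouse embryonic stem cells without and with the histone acetyltransferase Gcn5 (Kat2a). The genes were chosen by symbol: 30 Mediator genes (Med), 17 TAF genes (Taf) and 28 polymerase genes (Polr1, Polr2 and Polr3), 75 of the 23259 genes in the files. Taf5l, Taf6l, Taf7l, Taf9, Taf10 and Taf12 were left out by that rule. The KO group was 2 clones in which Cre had removed exons 3 to 18 of both floxed Gcn5 alleles. They were picked among GFP-positive cells, sorted 72 hours after a transient transfection with a vector for an EGFP-Cre fusion. The WT group was 2 clones picked among the GFP-negative cells, with both floxed alleles kept. The clones came from founder lines 6 and 4, both Gcn5 flox/flox lines derived from blastocysts, and each line gave 1 KO clone and 1 WT clone. Their karyotype was normal and male, per the labels' protocols. All 4 clones were grown on feeder fibroblasts treated with mitomycin C, with 15% serum and 1000 U/mL of LIF, a cytokine that keeps mouse stem cells undifferentiated. The sources used here do not say whether the RNA was taken with the feeders present. Each clone gave 1 library, of total RNA depleted of ribosomal RNA.

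Transcription by Pol II begins when TFIID, made of TBP and TAFs, recognises a promoter and Pol II assembles there with the other general factors. Mediator bridges activators and Pol II: its head and middle contact the polymerase, its tail takes up activators, Med14 is the scaffold that joins them, and a dissociable kinase module holds Med12 and Med13. Pol I makes the ribosomal RNA precursor, Pol III makes transfer RNAs and other short RNAs, and all 3 polymerases share small subunits. Gcn5 acts in the coactivator complexes SAGA and ATAC, and SAGA shares a few TAFs with TFIID.

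Values were deposited as FPKM, a level per transcript length and per sequenced read, normalized to spike-in RNA. Kat2a was listed at 11.5 and 11.5 FPKM in KO lines 6 and 4, against 34.4 and 38.7 FPKM in WT lines 6 and 4 (log2 fold change -1.58, SE 0.23, limma adjusted p = 0.0112); the files give 1 value for the whole gene, so exons outside the deletion count in it. Differences are given on the log2(FPKM + 1) scale for the 11932 genes that averaged 1 FPKM or more over the 4 libraries, and those between KO and WT had a median of -0.19 in line 6 and -0.44 in line 4. Values relative to the median gene have this median taken away within each line. In bulk RNA, fewer cells of a type and less RNA per cell cannot be told apart. The 12 stem cell markers summed to 3542 and 3415 FPKM in KO lines 6 and 4, against 4281 and 5421 FPKM in WT lines 6 and 4. Dppa5a alone held 1977 and 1962 FPKM of this in KO and 2390 and 3124 FPKM in WT. Pou5f1 was at 640.0 and 454 FPKM in KO lines 6 and 4, against 782 and 715 FPKM in WT lines 6 and 4. Between KO and WT, 9 of the 12 lay below the median gene in line 6 and 11 in line 4. The summed level of 31 feeder fibroblast markers was 824 and 586 FPKM in KO lines 6 and 4, against 727 and 830 FPKM in WT lines 6 and 4. The lowest of them averaged 0.86 FPKM over the 4 clones. Between KO and WT, 28 of the 29 tested lay above the median gene in line 6 and 21 in line 4. The part of feeder RNA in the values that follow was not tested.

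Nearly all of the machinery was detected: 73 of the 75 genes passed the filter on the mean. Polymerase genes stood highest, with a median over genes of 34.1 FPKM, against 16.3 FPKM for TAFs, 12.5 FPKM for Mediator and 9.68 FPKM for all tested genes. FPKM is per length, so levels of different genes are set side by side below. Division by length does not remove other differences in counting, such as exons that overlap another gene.

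**Figure D1:**
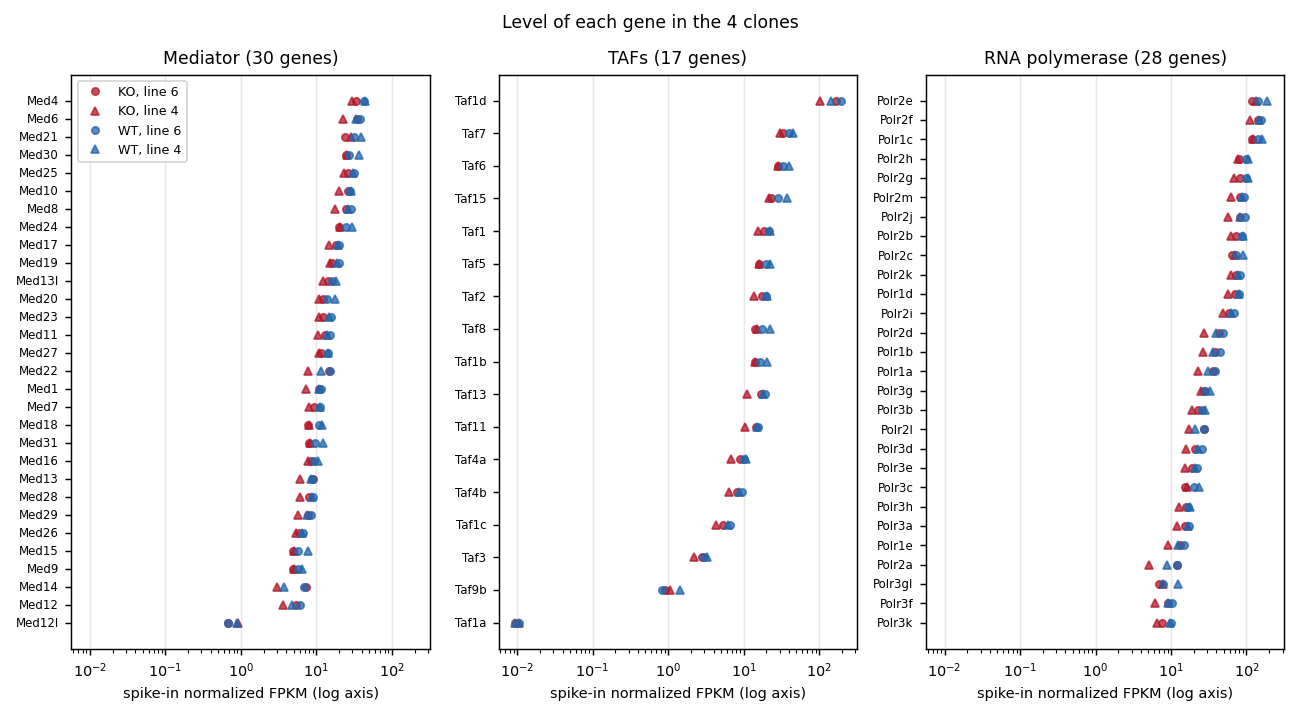
Spike-in normalized FPKM of each gene (log axis) in the 4 clones, with KO in red and WT in blue, circles for line 6 and triangles for line 4, and a panel for each group. Polymerase genes reach the highest levels as a group, Taf1d is the highest single gene, and Taf1a and Med12l lie below 1 FPKM in all 4 clones.

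Mediator transcripts spanned a modest range. Med4, of the middle, was the most abundant, with 33.9 and 29.6 FPKM in KO lines 6 and 4, against 43.4 and 43.6 FPKM in WT lines 6 and 4. Med6, of the head, followed with 34.8 and 22.4 FPKM in KO, against 37.4 and 33.8 FPKM in WT. In Med4 both KO clones were below both WT clones, while in Med6 KO line 6 exceeded WT line 4. Med12 and Med14 were the lowest of the tested Mediator genes, and Med12 had 5.44 and 3.65 FPKM in KO, against 6.10 and 4.79 FPKM in WT. Its paralog Med12l was lower still, with 0.681 and 0.910 FPKM in KO, against 0.672 and 0.898 FPKM in WT, and was not tested. The other kinase module paralog, Med13l, had 14.3 and 12.1 FPKM in KO, against 15.9 and 18.3 FPKM in WT. It exceeded Med13 in each clone, by a ratio of 1.59 and 1.98 in KO and 1.80 and 2.14 in WT.

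The 12 chosen TFIID subunits averaged between 1.06 and 37.0 FPKM. Taf9 and Taf10, left out by the rule, stood higher and are given below. Taf7, which binds Taf1, stood highest of the 12 with 32.7 and 30.2 FPKM in KO lines 6 and 4, against 39.7 and 45.4 FPKM in WT lines 6 and 4. Taf1, the largest subunit, had 18.3 and 15.4 FPKM in KO, against 21.4 and 22.6 FPKM in WT. In both genes the KO clones were below the WT clones. Taf3, which reads methylated histone H3, was low, with 2.81 and 2.23 FPKM in KO, against 2.97 and 3.28 FPKM in WT. Taf4a, a core subunit, had 8.94 and 6.87 FPKM in KO, against 10.2 and 10.7 FPKM in WT. Its paralog Taf4b had 8.21 and 6.42 FPKM in KO, against 9.52 and 8.54 FPKM in WT. They were close to each other, with a ratio of Taf4a to Taf4b of 1.09 and 1.07 in KO and 1.07 and 1.25 in WT. Taf9b had 0.919 and 1.07 FPKM in KO, against 0.827 and 1.44 FPKM in WT, and the ratio of its paralog Taf9 to it was 69.2 and 57.5 in KO and 88.1 and 58.9 in WT.

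Taf1a, Taf1b, Taf1c and Taf1d encode TAFs of SL1, the selectivity factor of Pol I, and their levels were far apart. Taf1d was the most abundant of the 75 genes, with 169 and 102 FPKM in KO lines 6 and 4, against 193 and 144 FPKM in WT lines 6 and 4. It also hosts small nucleolar RNAs, and the sources used here do not say how their reads were counted. Taf1a was listed at 0.00937 and 0.0106 FPKM in KO, against 0.0107 and 0.00940 FPKM in WT, in each library the commonest value in the file, that of genes without signal. Taf1b averaged 16.3 FPKM and Taf1c 5.60 FPKM over the 4 clones. Taf15, an RNA-binding protein, averaged 27.8 FPKM.

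Among polymerase genes, the shared subunits stood highest. Polr2e, shared by Pol I, II and III, had 118 and 134 FPKM in KO lines 6 and 4, against 144 and 185 FPKM in WT lines 6 and 4. Polr2f, also shared by all 3, had 143 and 111 FPKM in KO, against 157 and 148 FPKM in WT. Both genes were lower in the KO clones than in the WT clones, without overlap, and the lines stood in opposite order in them. Subunits of Pol III alone were the lowest class, with a median over genes of 17.3 FPKM. The lowest of it was Polr3k, with 7.71 and 6.61 FPKM in KO, against 10.1 and 9.62 FPKM in WT. Polr3f followed, with 9.08 and 6.19 FPKM in KO, against 10.2 and 9.19 FPKM in WT. In both genes each KO clone was below the WT clone of its own line.

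The largest subunit of Pol II was listed well below its partner. Polr2a, which carries most of the catalytic site and the repeated C-terminal tail, had 12.1 and 5.08 FPKM in KO lines 6 and 4, against 12.0 and 8.87 FPKM in WT lines 6 and 4. Polr2b, the second largest subunit, had 72.5 and 61.7 FPKM in KO, against 87.3 and 89.6 FPKM in WT. The ratio of Polr2a to Polr2b was 0.167 and 0.0823 in KO and 0.138 and 0.0989 in WT. For the matching pair of Pol I, Polr1a over Polr1b, the ratio was 0.924 and 0.841 in KO and 0.866 and 0.864 in WT. In Pol III, Polr3a had 15.2 and 11.9 FPKM in KO, against 17.5 and 16.6 FPKM in WT. Polr3b had 22.5 and 19.1 FPKM in KO, against 25.8 and 28.3 FPKM in WT. Their ratio, Polr3a over Polr3b, was 0.675 and 0.625 in KO and 0.679 and 0.586 in WT. In all 4 clones this kind of ratio was lowest for the Pol II pair.

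Polr3g and Polr3gl encode alternative forms of a Pol III subunit, and Polr3g is known as the form of stem cells. Polr3g had 27.1 and 25.3 FPKM in KO lines 6 and 4, against 28.4 and 32.7 FPKM in WT lines 6 and 4. Polr3gl had 6.83 and 7.88 FPKM in KO, against 7.76 and 12.2 FPKM in WT. Polr3g was the higher in all 4 clones, by a ratio of 3.97 and 3.21 in KO and 3.66 and 2.68 in WT.

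The promoters of Med14 and Polr2a, which differed most between the founder lines, and of the paralogs Polr3g and Polr3gl are shown for their context. They are the 250 bases before the RefSeq start in build GRCm38.p6, while the deposited values were made on mm9. All 4 are given on the minus strand, at chr11:69758634-69758883 for Polr2a, chrX:12761974-12762223 for Med14, chr13:81711014-81711263 for Polr3g and chr3:96594182-96594431 for Polr3gl. Capitals mark the TATA box TATAAA, the E-box CACGTG and the GC box GGGCGG, searched on both strands, so that the reverse TTTATA counts for the first and the reverse CCGCCC for the last.
Polr2a: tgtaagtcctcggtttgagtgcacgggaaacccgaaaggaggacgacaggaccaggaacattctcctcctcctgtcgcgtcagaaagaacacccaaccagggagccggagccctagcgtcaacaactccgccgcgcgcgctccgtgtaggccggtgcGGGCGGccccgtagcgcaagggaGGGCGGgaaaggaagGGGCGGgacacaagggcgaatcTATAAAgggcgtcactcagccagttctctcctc
Med14: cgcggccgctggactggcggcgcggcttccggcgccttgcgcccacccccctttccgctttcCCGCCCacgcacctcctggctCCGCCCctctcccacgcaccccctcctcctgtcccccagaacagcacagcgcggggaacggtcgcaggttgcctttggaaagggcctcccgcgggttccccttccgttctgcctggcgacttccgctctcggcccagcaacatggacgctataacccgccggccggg
Polr3g: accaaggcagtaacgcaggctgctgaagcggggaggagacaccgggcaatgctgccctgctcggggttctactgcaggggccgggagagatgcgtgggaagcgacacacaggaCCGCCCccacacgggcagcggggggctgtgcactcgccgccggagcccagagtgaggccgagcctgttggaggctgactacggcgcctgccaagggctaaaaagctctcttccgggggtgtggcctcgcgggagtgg
Polr3gl: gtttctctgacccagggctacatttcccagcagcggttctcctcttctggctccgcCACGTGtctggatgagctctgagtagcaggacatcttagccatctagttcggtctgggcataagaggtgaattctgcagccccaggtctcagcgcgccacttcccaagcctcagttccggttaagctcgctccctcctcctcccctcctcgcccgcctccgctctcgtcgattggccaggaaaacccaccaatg
Polr2a held TATAAA 33 bases before the start, and 3 GC boxes. Med14 held 2 GC boxes, Polr3g held 1, and Polr3gl held 1 E-box. Of the 75 genes, 60 matched the RefSeq table, with 71 promoters. GGGCGG was in 59.2% of these promoters, against 59.4% of promoters of tested genes and 32.7% of all promoters. TATAAA was in 12.7%, against 6.14% and 12.4%, and CACGTG in 7.04%, against 8.68% and 6.02%. A match describes letters only.

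The first comparison asks which of these transcripts differ without Gcn5. None of the 73 tested genes passed the test between KO and WT (limma, lowest adjusted p = 0.445), beside 0% of all tested genes higher and 0.0168% lower in KO. At an unadjusted p under 0.05, 1 of the 73 (1.37%) was lower, Taf15, against 5.46% of all tested genes, and 0 were higher, against 0.0838%. With founder line as a block 0 passed too, where 0.763% of all tested genes were lower and 0.0335% higher. The 2 clones of a group are also of different lines, so the p-values measure a spread between clones that includes the lines. An adjusted p above the threshold does not show that KO and WT are alike.

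As deposited, the genes were listed lower in KO about as far as the median gene. Of the 73, 68 (93.2%) were lower in KO in both lines, against 86.3% of all tested genes, and 0 were higher in both, against 0.964%. The other 5 (6.85%) had opposite signs in the lines, against 12.7%. In 58 (79.5%) both KO clones were below both WT clones, a larger share than the 59.8% of all tested genes, and in 0 above, against 0.268%. The median difference over the 73 was -0.19 in line 6 and -0.47 in line 4, beside -0.19 and -0.44 over all tested genes. Relative to the median gene, 16 (21.9%) were above in both lines and 27 (37%) below, where each direction held 27.1% of all tested genes. Within 0.1 of it in both lines lay 34 (46.6%), against 28.9% of all tested genes. Lying over 0.2 from it on the same side in both lines were 2 (2.74%), Med14 and Taf9b, against 4.42%. For Taf9b, near the filter, the added 1 FPKM shrinks differences toward 0. In line 4, where Taf9b was lower in KO, that alone moves it up relative to the median gene. In line 6, where Taf9b was higher in KO, it moves Taf9b down instead. The SD over genes was 0.10 in line 6 and 0.11 in line 4 for the 73, beside 0.27 and 0.20 for all tested genes. The median level was 9.68 FPKM for all tested genes, beside 17.5 FPKM for the 75 chosen genes, with the untested ones counted.

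**Figure D2:**
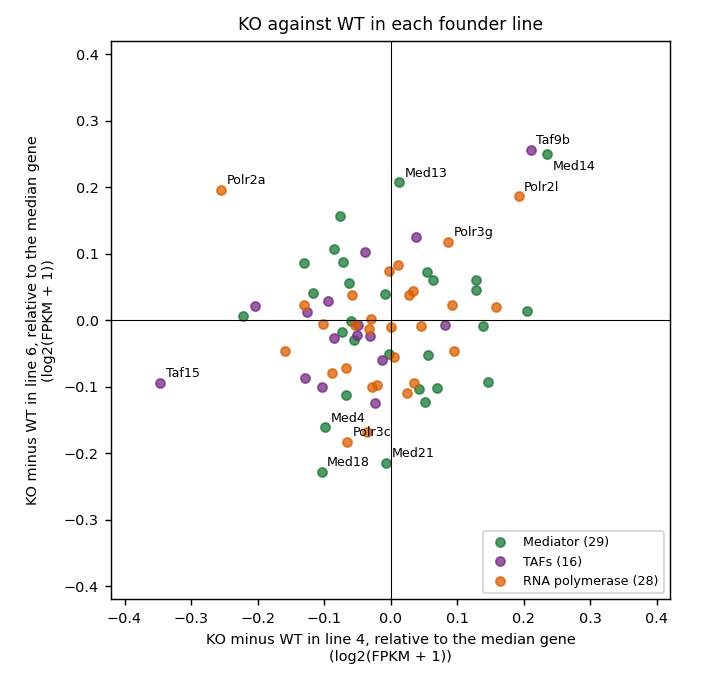
KO minus WT difference of each tested gene relative to the median gene, in log2(FPKM + 1), in line 4 on the x axis and in line 6 on the y axis, with 1 point per gene coloured by group. Med14 and Taf9b lie above 0.2 in both lines, and Polr2a lies above 0 in line 6 and below it in line 4.

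Mediator as a group lay at the median gene, with a relative median of 0.0060 in line 6 and -0.0066 in line 4. Of its 29 tested genes, 15 were above the median gene in line 6 and 13 in line 4. The lowest p were those of Med4, Med18 and Med21. Med4, with the levels given above, had a log2 fold change of -0.44 with SE 0.22 and limma adjusted p = 0.445. Med18, of the head, was listed at 7.81 and 7.88 FPKM in KO lines 6 and 4, against 10.7 and 12.0 FPKM in WT lines 6 and 4 (log2 fold change -0.48, SE 0.25, limma adjusted p = 0.445). Both KO clones of Med18 were below both WT clones, and relative to the median gene it lay at -0.23 in line 6 and -0.10 in line 4. Med21, of the middle, was listed at 23.9 and 28.6 FPKM in KO, against 31.9 and 39.5 FPKM in WT (log2 fold change -0.43, SE 0.23, limma adjusted p = 0.445). It lay at -0.21 in line 6 and -0.0066 in line 4 relative to the median gene, so it was over 0.1 below only in line 6. Med4 lies on chromosome 14, whose 428 tested genes had a relative median of -0.15 in line 6 and -0.027 in line 4; Med4 was at -0.16 and -0.098, and the part of the chromosome in it was not tested.

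Med14 was the Mediator gene highest above the median gene, at 0.25 in line 6 and 0.24 in line 4. It was listed at 7.19 and 3.04 FPKM in KO lines 6 and 4, against 6.83 and 3.67 FPKM in WT lines 6 and 4, so the genotypes overlapped and the lines did not. Med13, of the kinase module, had 8.94 and 6.08 FPKM in KO, against 8.79 and 8.55 FPKM in WT, which is 0.21 and 0.013 relative to the median gene. Med17, a core subunit of the head, had 18.5 and 14.6 FPKM in KO, against 20.2 and 19.4 FPKM in WT, which is 0.060 and 0.064. Med1, which binds nuclear receptors, had 10.8 and 7.37 FPKM in KO, against 11.6 and 11.0 FPKM in WT, which is 0.087 and -0.072. By module, relative medians in lines 6 and 4 were 0.0060 and -0.076 for the head, -0.030 and -0.0066 for the middle, -0.00091 and 0.042 for the tail and 0.045 and 0.013 for the 3 tested genes of the kinase module. None of these 4 modules lay over 0.1 from the median gene in either line.

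TAFs had a relative median of -0.015 in line 6 and -0.050 in line 4. Of 16 tested genes, 10 were below the median gene in line 6 and 13 in line 4. Taf15 had the lowest p of all 73 genes. It was listed at 23.2 and 21.5 FPKM in KO lines 6 and 4, against 28.4 and 37.9 FPKM in WT lines 6 and 4 (log2 fold change -0.54, SE 0.23, limma adjusted p = 0.445; 0.214 with the block). WT line 4 stood highest, and relative to the median gene Taf15 lay at -0.094 in line 6 and -0.35 in line 4. Taf7, with the levels given above, had a log2 fold change of -0.42 with SE 0.22 and limma adjusted p = 0.445. Taf8, which brings Taf10 into TFIID, was listed at 14.1 and 15.2 FPKM in KO, against 17.4 and 22.7 FPKM in WT (log2 fold change -0.42, SE 0.24, limma adjusted p = 0.445). Both were about as far below the median gene in each line, Taf7 at -0.086 and -0.13 and Taf8 at -0.10 and -0.10. On the log2(FPKM + 1) scale, Taf9b and Taf3 were the TAFs above the median gene in both lines. Taf9b lay at 0.26 in line 6 and 0.21 in line 4, and Taf3 at 0.13 and 0.038. Taf9b, at about 1 FPKM, stood just above the filter, and log2(FPKM + 1) understates changes of such genes. For low genes that are lower in KO, this alone places them higher relative to a median gene that is lower in KO. A low gene that is higher in KO, as Taf9b was in line 6, is placed lower by it. Without the added 1 FPKM, the KO level in line 4 was 0.746 times the WT level for Taf9b and 0.680 times for Taf3. The median gene in line 4 was at 0.735 times with 1 FPKM added and 0.708 times with 0.1 FPKM added. By these ratios Taf9b was close to it in line 4 and Taf3 was below it. In line 6 both genes stayed above it, at 1.11 and 0.946 times, beside 0.866 times with 0.1 FPKM added.

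Polymerase genes had a relative median of -0.0079 in line 6 and -0.011 in line 4. Of 28, 16 were below the median gene in line 6 and 15 in line 4. The lowest p were those of Polr2g, Polr2b and Polr3c. Polr2g, of the Pol II stalk, was listed at 82.6 and 69.1 FPKM in KO lines 6 and 4, against 97.2 and 106 FPKM in WT lines 6 and 4 (log2 fold change -0.42, SE 0.21, limma adjusted p = 0.445). Polr2b, with the levels given above, had a log2 fold change of -0.40 with SE 0.21 and limma adjusted p = 0.445. Polr3c, of Pol III, was listed at 15.4 and 16.2 FPKM in KO, against 20.2 and 23.5 FPKM in WT (log2 fold change -0.44, SE 0.24, limma adjusted p = 0.445). In these 3 genes both KO clones were below both WT clones, and Polr3c lay at -0.18 in line 6 and -0.066 in line 4 relative to the median gene.

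Polr2l, a small subunit shared by all 3 polymerases, was the polymerase gene highest above the median gene over both lines, at 0.19 in line 6 and 0.19 in line 4. It was listed at 27.6 and 17.2 FPKM in KO lines 6 and 4, against 27.5 and 20.7 FPKM in WT lines 6 and 4. Polr3g was next at 0.12 and 0.086. Polr2a stood on opposite sides of the median gene, at 0.20 in line 6 and -0.25 in line 4. Its KO level was 1.01 times the WT level in line 6 and 0.573 times in line 4. By class, relative medians in lines 6 and 4 were 0.038 and 0.027 for Pol I, -0.030 and -0.060 for Pol II, -0.0080 and -0.032 for Pol III, -0.047 and 0.0023 for subunits of Pol I and III and 0.019 and 0.034 for those of all 3.

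**Figure D3:**
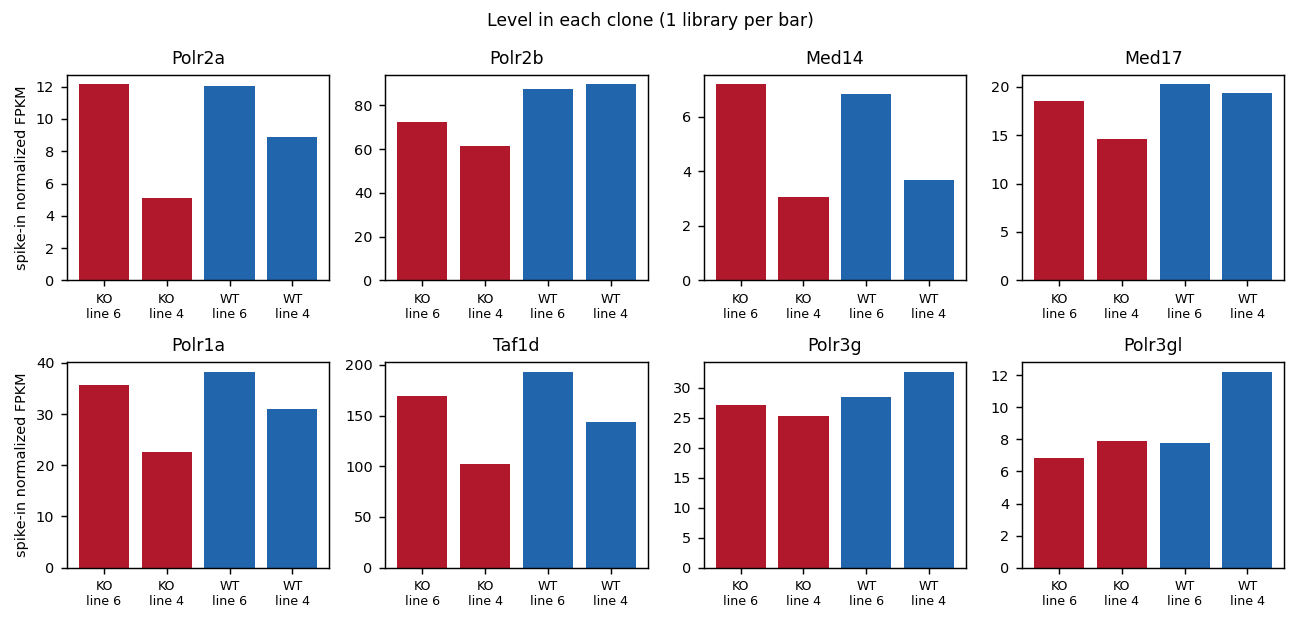
Spike-in normalized FPKM of 8 genes in each clone, with 1 bar per library, KO in red and WT in blue. In Med14 and Polr2a both clones of line 6 stand above both clones of line 4, and in Polr3gl both stand below.

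The second comparison sets founder line 6 against line 4, with 1 KO and 1 WT clone in each. None of the 73 genes passed the test between the lines (limma, lowest adjusted p = 0.163), beside 0.947% of all tested genes higher and 1.03% lower in line 6. At an unadjusted p under 0.05, 2 (2.74%) were higher in line 6, Med14 and Polr2a, against 3.46% of all tested genes, and 0 were lower, against 5.16%. With genotype as a term, 3 (4.11%) were higher, Med14, Polr2a and Taf1d, against 3.67%, and 0 lower, against 5.46%. After centring each library on its median gene, 23 (31.5%) were higher, against 16.4%, and 1 (1.37%) lower, Polr3gl, against 13.8%. With both changes, 21 (28.8%) were higher, against 16%, and 1 (1.37%) lower, Polr3gl, against 13.5%. The calls between the lines thus depended on the scaling and on the genotype term, and adjusted p-values after centring stand beside those of the deposited scale below.

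As deposited, more of these genes were listed higher in line 6 than lower. Higher in line 6 in both genotypes were 38 (52.1%), against 30.8% of all tested genes, and lower in both were 14 (19.2%), against 34.9%. The other 21 (28.8%) had opposite signs in KO and WT, against 34.3%. Relative to the median gene, 46 (63%) were higher in both genotypes and 20 (27.4%) lower, where each direction held 40.1% of all tested genes. In 13 (17.8%) both line 6 clones were above both line 4 clones, against 16.3%. The 13 were Med6, Med12, Med13, Med14, Med22, Med29, Polr1a, Polr1b, Polr1e, Polr2a, Polr2d, Polr2l and Taf1d. In 2 (2.74%), Polr3gl and Taf9b, they were below, against 17.4%. Lying over 0.3 higher in line 6 in both genotypes were 6 (8.22%), against 8.12%, and over 0.3 lower 0, against 10.9%.

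By group, the median difference between line 6 and line 4 was 0.19 in KO and 0.029 in WT for Mediator, 0.24 in KO and -0.094 in WT for TAFs and 0.28 in KO and 0.080 in WT for polymerase genes, beside 0.12 in KO and -0.14 in WT over all tested genes. Of the polymerase classes, the 3 chosen genes of Pol I alone had 0.50 in KO and 0.30 in WT, the highest.

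**Figure D4:**
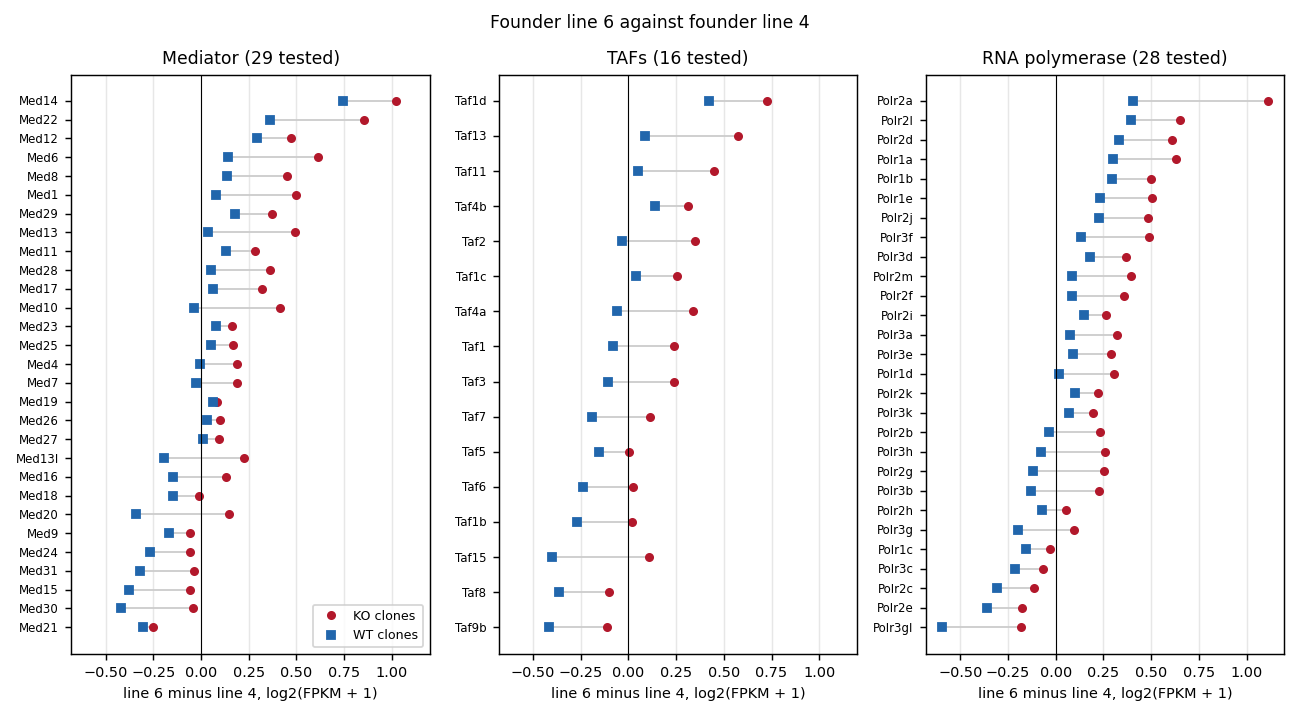
Line 6 minus line 4 difference of each tested gene in log2(FPKM + 1), with red circles for the KO clones, blue squares for the WT clones and a panel for each group. Med14, Polr2a, Taf1d, Med22, Polr2d and Polr2l lie above 0.3 in both genotypes, and no gene lies below -0.3 in both.

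Med14 differed most between the lines. It was listed at 7.19 and 6.83 FPKM in the line 6 KO and WT clones, against 3.04 and 3.67 FPKM in those of line 4 (log2 fold change 0.88, SE 0.32, limma adjusted p = 0.163 and 0.00552 after centring, and 0.00197 with genotype as a term). The line 6 level was 2.36 times that of line 4 in KO and 1.86 times in WT. Med14 lies on the X chromosome, whose tested genes had a median difference between the lines of 0.032 in KO and 0.046 in WT relative to the median gene. Set against Med17 of the head, the ratio of Med14 was 0.389 and 0.208 in KO and 0.338 and 0.190 in WT. Med22, of the head, was listed at 14.8 and 15.1 FPKM in line 6 KO and WT, against 7.76 and 11.6 FPKM in line 4 (log2 fold change 0.61, SE 0.34, limma adjusted p = 0.655 and 0.00444 after centring, and 0.0591 with genotype as a term). Med12 had a log2 fold change of 0.38 with SE 0.32 and limma adjusted p = 0.921 and 0.0206 after centring. In all 3 genes both clones of line 6 were above both of line 4, while Med4 and Med21 did not separate the lines that way.

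Polr2a was listed at 12.1 and 12.0 FPKM in the line 6 KO and WT clones, against 5.08 and 8.87 FPKM in those of line 4 (log2 fold change 0.76, SE 0.34, limma adjusted p = 0.397 and 0.00546 after centring, and 0.0124 with genotype as a term). KO line 4 stood lowest, and the line 6 level was 2.39 times that of line 4 in KO and 1.36 times in WT. Polr2l, whose levels are given above, had a log2 fold change of 0.52 with SE 0.34 and limma adjusted p = 0.780 and 0.0100 after centring. Polr2d, of the stalk, was listed at 42.8 and 49.2 FPKM in line 6 KO and WT, against 27.7 and 38.9 FPKM in line 4 (log2 fold change 0.47, SE 0.35, limma adjusted p = 0.871 and 0.00527 after centring). Both subunits were higher in both clones of line 6. The Pol I pair was alike: Polr1a was listed at 35.6 and 38.3 FPKM in line 6 KO and WT, against 22.6 and 30.9 FPKM in line 4 (log2 fold change 0.46, SE 0.35, limma adjusted p = 0.874 and 0.00550 after centring), and Polr1b at 38.5 and 44.2 FPKM in line 6 KO and WT, against 26.9 and 35.8 FPKM in line 4 (log2 fold change 0.40, SE 0.35, limma adjusted p = 0.947 and 0.00801 after centring). Polr3gl stood the other way, at 6.83 and 7.76 FPKM in line 6 KO and WT, against 7.88 and 12.2 FPKM in line 4 (log2 fold change -0.39, SE 0.33, limma adjusted p = 0.945 and 0.0239 after centring), with WT line 4 the highest.

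Among TAFs, Taf1d had the lowest p with genotype as a term. It was listed at 169 and 193 FPKM in the line 6 KO and WT clones, against 102 and 144 FPKM in those of line 4 (log2 fold change 0.58, SE 0.37, limma adjusted p = 0.766 and 0.00433 after centring, and 0.0265 with genotype as a term). Taf13, of TFIID, was listed at 16.9 and 19.0 FPKM in line 6 KO and WT, against 11.0 and 17.8 FPKM in line 4 (log2 fold change 0.33, SE 0.34, limma adjusted p = 0.994 and 0.0231 after centring). Taf9b had a log2 fold change of -0.26 with SE 0.23 and limma adjusted p = 0.941 and 0.326 after centring. With genotype as a term on centred values, Taf9b had adjusted p = 0.238 in limma, and the other 11 genes given here with a fold change between the lines had 0.00601 to 0.0339. Taf13 did not separate the lines without overlap, and Taf1d and Taf9b did, in opposite directions.

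Other genes of the same pathways were counted from lists. None of their tested genes passed either test. The TAFs that TFIID shares with SAGA lay, by the median, 0.085 in line 6 and -0.0078 in line 4 from the median gene between KO and WT, with Taf9 at 63.6 and 61.7 FPKM in KO, against 72.8 and 84.8 FPKM in WT, Taf10 at 91.7 and 82.3 FPKM in KO, against 98.4 and 119 FPKM in WT and Taf12 at 18.1 and 12.5 FPKM in KO, against 18.7 and 17.3 FPKM in WT. Cdk8, Cdk19 and cyclin C, the kinases and cyclin of Mediator, had 0.089 and -0.091. The 20 Pol II general factors had 0.024 and -0.031, and the 22 pausing and elongation factors had -0.028 and -0.051. Among the elongation factors Supt16h, of the histone chaperone FACT, was listed at 129 and 114 FPKM in KO, against 183 and 179 FPKM in WT (log2 fold change -0.58, SE 0.20, limma adjusted p = 0.445). The other 2 lists held factors of Pol I and Pol III together with subunits that do not bear a Polr name. The 7 genes of the Pol I list had -0.011 and -0.047 and the 18 of the Pol III list 0.012 and -0.025. Between the lines, median differences were 0.42 in KO and 0.11 in WT for the Pol I list and 0.12 in KO and -0.15 in WT for the Pol III list. They were 0.23 in KO and -0.077 in WT for the Pol II general factors and 0.17 in KO and -0.032 in WT for the pausing and elongation factors. They were 0.31 in KO and -0.23 in WT for the Mediator kinases and cyclin and 0.15 in KO and -0.22 in WT for the shared TAFs.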

How the data were processed

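RNA of 2 KO and 2 WT clones was sequenced. The authors deposited 1 table per library in FPKM, spike-in normalized per the file headers. Bowtie 0.12.8, TopHat2 2.0.9, affy, HTSeq, edgeR and genome build mm9 are named, without roles, per the submitters' processing notes. The sources used here do not say how spike-ins set the scale, and depth is unknown. RNA (1 µg) was spiked with 2 µL of ERCC mix per the labels' protocols, and thus per mass of RNA. Of 23376 entries in each file, 92 were spike-ins and 25 had no partner of the same name and were left out.

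KO was tested against WT, and line 6 against line 4, in R 4.3.3 by the linear models of limma 3.58.1 (two-sided, empirical Bayes with a trend), on log2(FPKM + 1), for genes that averaged 1 FPKM or more, with Benjamini-Hochberg adjustment over all 11932 and a threshold of 0.05. The fit was tested on simulated data that held no founder lines and no shift of all genes, a simpler setting than these clones. Replicate numbers are founder lines, so they pair the clones (deviations of same-numbered libraries correlated across genes at r = 0.695); the fit without the block was the main one. In all, 12 alternatives were run for KO against WT and 11 for the lines.

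Members and lists were chosen with earlier results of these data known. Values in every library are given by rule: in each group, 3 genes of lowest p in each comparison, 2 highest and 2 lowest in level and relative to the median gene, catalytic subunits, paralogs and 4 others. Of the 75 genes, 26 overlap exons of another gene in GENCODE M21, 2 of them, Med12 and Med20, on the same strand. The sources used here do not say whether counting used strand.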

Additional observations from a re-analysis of the deposited data

Results flagged for a closer look

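In 5 (6.85%) of the 73 tested genes the difference between KO and WT had opposite signs in the founder lines, against 12.7% of all tested genes. It was 0.022 in line 6 and -0.43 in line 4 for Med13, 0.065 in line 6 and -0.21 in line 4 for Med14, 0.011 in line 6 and -0.70 in line 4 for Polr2a. For Polr2l it was 0.0015 in line 6 and -0.25 in line 4 and for Taf9b it was 0.071 in line 6 and -0.23 in line 4.

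The difference between line 6 and line 4 had opposite signs in KO and in WT in 21 (28.8%) of the 73 genes, against 34.3% of all tested genes. Values follow for the 11 of them that are among the 38 genes described by library. On the log2 scale it was 0.22 in KO and -0.19 in WT for Med13l, 0.19 in KO and -0.0062 in WT for Med4, 0.23 in KO and -0.037 in WT for Polr2b. The values were 0.25 in KO and -0.12 in WT for Polr2g, 0.22 in KO and -0.13 in WT for Polr3b, 0.095 in KO and -0.20 in WT for Polr3g. They were 0.24 in KO and -0.079 in WT for Taf1, 0.11 in KO and -0.40 in WT for Taf15, 0.24 in KO and -0.11 in WT for Taf3. The last were 0.34 in KO and -0.062 in WT for Taf4a, 0.11 in KO and -0.19 in WT for Taf7. Each value is the difference of 1 clone from another in log2(FPKM + 1), and no difference between effects was tested. The median gene itself differed between the lines by 0.12 in KO and -0.14 in WT.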

How the results depend on the processing

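Between KO and WT, 0 of the 73 genes passed under any of the 12 alternatives, with or without the replicate block, while the count over all genes moved from the 2 of the fit without the block. It was 0 with no filter on low values, on centred values and after quantile normalization, 95 with the replicate block, 33 when blocked and centred, 91 when blocked with a robust spread, and 0 to 133 when 1 clone was left out (20 without WT line 4, 133 without WT line 6). The group medians moved with the scale: Mediator from -0.32 to -0.013 on centred values, blocked or not, and 0.0078 after quantile normalization, TAFs from -0.35 to -0.046 and -0.026, polymerase genes from -0.34 to -0.033 and 0.011. With 1 clone left out these medians were -0.43 to -0.24, -0.48 to -0.21 and -0.48 to -0.16. Between the lines, 236 genes passed without the genotype term, 0 with no filter, 3602 on centred values, 3865 after quantile normalization, 1089 with the genotype term, 3531 with that term after centring, and 7 to 1607 with 1 clone left out. Of the 73 genes these were 0, 0, 24, 26, 3, 22 and 0 to 3. Without WT line 4, Med14, Polr2a and Med22 passed, and without KO line 4, Med14 and Polr3gl. The line medians with 1 clone left out were -0.077 to 0.31 for Mediator, -0.17 to 0.31 for TAFs and -0.027 to 0.39 for polymerase genes. Those fits held no genotype term, so leaving out 1 clone made the genotypes uneven between the lines, and these medians take in the shift between KO and WT. They cannot tell whether the direction rests on single clones. Relative to the median gene, the 73 had a median line difference of 0.12 in KO and 0.16 in WT. Of 240 other values of single genes under alternatives, 199 stayed on their side of the threshold with the same direction and 41 newly passed it, all between the lines. The cause of these moves was not tested. A lone clone in a group was assumed to vary like the others. Depth is unknown and limits low genes such as Taf9b.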

Other observations

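Chromosome 8 held 638 tested genes at a relative median of 0.028 in line 6 and 0.092 in line 4 between KO and WT. Of the Mediator, TAF and polymerase genes on it, Med26, which links Mediator to elongation factors, lay at 0.014 in line 6 and 0.21 in line 4, Polr2c at 0.022 and 0.092 and Taf1c at -0.060 and -0.013. On chromosome 14, Polr3a lay at -0.010 and 0.00047 and Polr3d at -0.10 and -0.028.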
